A study of Homo sapiens with 48 samples.

Results

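The mRNA response described here is contrast 4 of the RNA-seq table, taken as the effect of a 3 hour exposure to benzo[a]pyrene in cells that stably express SATB1. Its members are all entries with a gene symbol, 15535 of the 16494 symbols measured in either assay of the series. MCF10A-1 is a non-malignant human breast epithelial line. The labels give 2 kinds of it, cells with a vector and cells with stable SATB1, a nuclear protein that organises chromatin, and do not say whether the latter are 1 clone. Both kinds were untreated or received benzo[a]pyrene at 4 µM, for either 3 hours or 3 days, and each of the 6 groups had 4 libraries in RNA-seq and 4 in GRO-seq, which reads RNA still held by polymerases. The titles and characteristics give the short exposure as 3 hours and were followed, while the treatment protocol text gives it as 72 hours, which would equal the long exposure. Contrast 4, as taken, sets 4 libraries of SATB1 cells exposed for 3 hours against 4 libraries of untreated SATB1 cells, so both sides carry the SATB1 construct. The titles call the untreated RNA-seq libraries Negative and name no solvent or harvest time for them. Effects of solvent, handling or time of harvest on contrast 4 were not tested.

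Benzo[a]pyrene is a polycyclic aromatic hydrocarbon of smoke and soot. It binds the aryl hydrocarbon receptor (AHR), a transcription factor held in the cytosol by chaperones. The bound receptor enters the nucleus, pairs with ARNT and binds DNA at the core letters GCGTG of the xenobiotic response element. Its best known targets are the cytochrome P450 genes CYP1A1 and CYP1B1, whose enzymes turn benzo[a]pyrene into forms that are excreted or that bind DNA. Other targets, AHRR and TIPARP, feed back to restrain the receptor.

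Per gene and contrast, the authors' deposited table holds a fold change with its unadjusted p-value. It gives no value per library, so the level of a gene, its spread over libraries and the depth behind it are unknown. The error given after ± is the standard error of the log2 fold change that the fold change and its p-value imply, and its median over all genes was 0.058 in contrast 4, with 95% of the genes below 0.70. A gene is called at a Benjamini-Hochberg adjusted p under 0.05. Nothing in the labels says that replicates were separate cultures, so p-values measure only how far these libraries vary, which may be technical variation.

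The headers do not name the groups of a contrast, and some measurements bear on the identity of contrast 4. SATB1 itself (chromosome 3) was 0.953-fold in contrast 4 in the authors' deposited table (adjusted p = 0.20), against 112-fold in contrast 1, 1.05-fold in contrast 2, 0.836-fold in contrast 3 and 1.49-fold in contrast 5. CYP1A1 was 45.6-fold in contrast 4, 195-fold in contrast 2, 36.0-fold in contrast 3, 4.79-fold in contrast 5 and 1.46-fold in contrast 1 in the same authors' deposited table. Over all genes, the standard error of contrast 4 was 1.01 times that of contrast 2 and 0.987 times that of contrast 5 at the median, where a difference between 2 exposure effects would have a larger error than either effect. Among the 331 genes with a log2 fold change above 2 in contrast 1, the error of contrast 4 was 0.507 times that of contrast 2, and among the 136 genes below -2 it was 1.86 times that of contrast 2. Precision in contrast 4 thus ran with the level that contrast 1 gives SATB1 cells, as did that of contrast 5 against contrast 3 (0.530 and 1.86 times). Contrasts 4 and 5 are therefore taken as the effects in SATB1 cells over shared untreated controls, and contrasts 2 and 3 as those in vector cells. Which of contrasts 4 and 5 is the 3 hour exposure is not in the headers and is taken, not shown.

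Promoter letters of 4 AHR targets called higher are shown because they hold the receptor's core letters close to the start of the gene. Each run is the 300 bases from 250 before to 50 after the RefSeq start on GRCh38.p14, 5′ to 3′ on the gene's strand, with capitals marking GCGTG or, for the other strand, CACGC.
CYP1A1, minus strand, chr15:74725479-74725778: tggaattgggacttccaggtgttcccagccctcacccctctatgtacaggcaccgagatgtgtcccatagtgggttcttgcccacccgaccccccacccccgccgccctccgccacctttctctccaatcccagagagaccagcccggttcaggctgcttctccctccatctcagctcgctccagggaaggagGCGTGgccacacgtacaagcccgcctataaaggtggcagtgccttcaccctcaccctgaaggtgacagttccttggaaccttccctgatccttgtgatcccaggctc
TIPARP, plus strand, chr3:156674340-156674639: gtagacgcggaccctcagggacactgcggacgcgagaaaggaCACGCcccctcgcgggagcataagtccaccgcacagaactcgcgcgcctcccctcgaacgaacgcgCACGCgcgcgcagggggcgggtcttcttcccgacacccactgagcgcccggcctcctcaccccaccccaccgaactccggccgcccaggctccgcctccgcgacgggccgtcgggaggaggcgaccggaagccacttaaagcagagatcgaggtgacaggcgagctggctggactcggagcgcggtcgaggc
AHRR, plus strand, chr5:321464-321763: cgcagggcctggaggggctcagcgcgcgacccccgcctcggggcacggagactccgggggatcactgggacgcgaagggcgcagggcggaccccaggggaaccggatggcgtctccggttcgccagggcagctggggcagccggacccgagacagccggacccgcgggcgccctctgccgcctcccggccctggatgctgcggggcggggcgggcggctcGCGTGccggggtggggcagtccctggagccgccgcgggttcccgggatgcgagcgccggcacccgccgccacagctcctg
ALDH1A3, plus strand, chr15:100879581-100879880: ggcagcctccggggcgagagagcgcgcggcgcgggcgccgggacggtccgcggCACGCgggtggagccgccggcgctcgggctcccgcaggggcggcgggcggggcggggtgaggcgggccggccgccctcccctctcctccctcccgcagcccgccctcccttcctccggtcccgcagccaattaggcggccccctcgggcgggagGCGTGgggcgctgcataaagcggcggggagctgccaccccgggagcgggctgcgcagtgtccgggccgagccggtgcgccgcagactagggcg

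In these windows the letters began 57 bases before the start in CYP1A1, 30 before in AHRR, 208 and 142 before in TIPARP, and 197 and 43 before in ALDH1A3. TIPARP has 3 starts in the RefSeq table and AHRR 2, of which 1 each is shown. The same 5 letters are common: they were in the windows of 47.9% of all 12457 genes with a promoter in the table, 49.7% of genes called higher in contrast 4 and 47.9% of those called lower. Among genes changed by at least 1.5-fold, they were in 42.9% of windows of those called higher and 44.4% of those called lower. Of the AHR-induced genes, 12 of 21 windows held them (57.1%). A match is a run of letters and does not show binding.

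The AHR response led contrast 4. Of 24 AHR-induced genes, 13 rose and 2 fell, a median log2 fold change of 0.23, where 3.87% of all genes were called higher and 4.9% lower and the median of all genes was -0.01. CYP1A1 (chromosome 15, 74719542 to 74725528) rose 45.6-fold in the authors' deposited table (95% interval 34.4 to 60.5, adjusted p = 1.68e-19), which was the largest called fold change of contrast 4. CYP1B1 (chromosome 2, 38067509 to 38076151) rose 3.64-fold in the authors' deposited table (3.34 to 3.97) with the smallest adjusted p of all genes (2.04e-20). In bulk RNA, a change in the share of responding cells and in RNA per cell cannot be told apart. CYP1A2, the liver member of the family, was not called (1.33-fold in the authors' deposited table, interval 0.533 to 3.34).

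The receptor's own genes were split between its restrainers and its partners. AHRR, which competes with AHR for ARNT, rose 2.89-fold in the authors' deposited table (log2 1.53 ± 0.17, adjusted p = 8.38e-08). TIPARP, which ADP-ribosylates AHR and marks it for loss, rose 1.5-fold (0.58 ± 0.03, adjusted p = 7.29e-14) in the authors' deposited table. AHR was at 1.00-fold (interval 0.827 to 1.21) and ARNT at 1.02-fold (0.978 to 1.07) in the authors' deposited table, and neither was called. Of the 10 receptor pathway components, 2 rose (AHRR and TIPARP) and 1 fell, the kinase SRC, at 0.876-fold in the authors' deposited table.

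Enzymes that handle aldehydes and conjugates also rose. ALDH1A3, which makes retinoic acid from retinal, rose 1.70-fold in the authors' deposited table (log2 0.76 ± 0.03, adjusted p = 5.05e-19). ALDH3A1, which clears aromatic and lipid aldehydes, rose 1.55-fold (0.63 ± 0.06), and NQO1, a quinone reductase, rose 1.10-fold in the authors' deposited table. UGT1A6, which adds glucuronic acid to phenols, was called at 4.56-fold in the authors' deposited table with a wide interval (1.76 to 11.9), and it shares exons with other UGT1A genes, so its reads may be split among them. The transcription factor NFE2L2 rose 1.17-fold and the amino acid transporter SLC7A5 1.20-fold in the authors' deposited table.

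Secreted and signalling members of the list were divided. SERPINB2, an inhibitor of plasminogen activators, rose 2.77-fold in the authors' deposited table (log2 1.47 ± 0.11, adjusted p = 6e-12). PTGS2, the inducible cyclooxygenase, rose 1.49-fold and the cytokine IL1B 1.15-fold in the authors' deposited table. The 2 members that fell were XDH, xanthine dehydrogenase, at 0.874-fold and the Notch effector HES1 at 0.831-fold in the authors' deposited table. The secreted factors EREG (0.957-fold), TGFA (0.938-fold) and STC2 (0.896-fold) in the authors' deposited table were, with CYP1A2, among the 9 members not called.

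**Figure D1:**
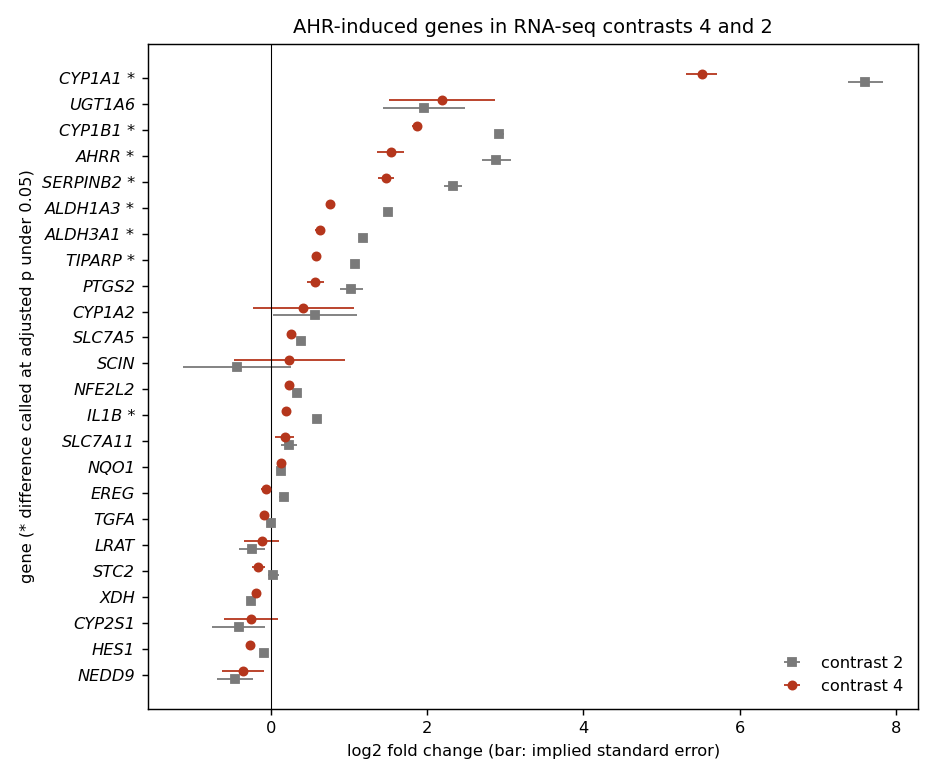
Log2 fold change (horizontal axis) of the 24 AHR-induced genes (vertical axis) in RNA-seq contrast 4 (red circles) and contrast 2 (grey squares), with bars of 1 implied standard error and an asterisk where the difference between the contrasts was called. CYP1A1 stands at 5.51 in contrast 4 and 7.61 in contrast 2, and all 8 genes with an asterisk lie nearer to 0 in contrast 4.

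Beside contrast 2, taken as the same exposure of vector cells and then sharing no library with contrast 4, the leading AHR targets rose less in contrast 4. Contrast 2 called 13 of the 24 AHR-induced genes higher and 1 lower, with a median log2 fold change of 0.36, where 9.64% of all genes were called higher and 9.63% lower. The difference between the contrasts was called for 8 of the 24, all smaller in contrast 4, while it was called for 0.412% of all genes. CYP1A1 was 195-fold in contrast 2 of the authors' deposited table, and contrast 4 lay 2.10 ± 0.30 log2 units below it (interval -2.72 to -1.48, adjusted p of the difference 1.04e-04). CYP1B1 was 7.60-fold in contrast 2 of the authors' deposited table, a difference of -1.06 ± 0.09 (adjusted p = 1.65e-09). AHRR was 7.38-fold there in the authors' deposited table, a difference of -1.35 ± 0.25 (adjusted p = 0.00316). The differences were -0.50 ± 0.05 for TIPARP, -0.73 ± 0.04 for ALDH1A3, -0.55 ± 0.08 for ALDH3A1, -0.86 ± 0.16 for SERPINB2 and -0.40 ± 0.05 for IL1B.

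A smaller fold change does not give a lower final level, since contrast 1, taken as untreated SATB1 over untreated vector cells, moves the level a fold starts from. The product of contrasts 1 and 4 gives the exposed SATB1 level over untreated vector cells if the contrasts are as taken. It was 66.5 for CYP1A1, 0.341 times the fold of contrast 2, and 5.14 for CYP1B1, 0.676 times. For AHRR it was 4.34, 0.589 times, and for SERPINB2 4.03, 0.802 times. For TIPARP it was 2.02, 0.955 times, and for ALDH1A3 it was 4.68, or 1.66 times the fold of contrast 2. IL1B was already 1.57-fold in contrast 1, beside 1.51-fold in contrast 2, in the authors' deposited table. Its product and that of ALDH3A1 are not given here. The products given were not tested.

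Across the table, contrast 4 called 1362 of 15535 genes (8.77%), of which 601 were higher and 761 lower. Most changes were small, with a median of 1.13-fold among genes called higher (quartiles 1.10 and 1.22) and of 1.13-fold downward among genes called lower (quartiles 1.09 and 1.20). A change of at least 1.5-fold was called for 42 genes higher and 38 lower, and of at least 2-fold for 24 and 19. At an unadjusted p under 0.05 there were 3507 genes. Behind CYP1A1, HSPA6 had the next largest called increase in the authors' deposited table (6.03-fold, interval 3.87 to 9.40). It was followed there by the lymphoid surface gene CD7 (4.90-fold, 2.42 to 9.91), C2orf72 (4.85-fold, 1.99 to 11.8), UGT1A6 and TMEM45B (4.42-fold, 1.80 to 10.9). CRYAB (3.85-fold), the germ cell gene TEX14 (3.80-fold), CYP1B1, PTGES3L (3.46-fold), the histone gene HIST1H4D (3.26-fold, with near-identical copies that make it uncertain) and VIPR1 (3.20-fold), a receptor for vasoactive intestinal peptide, completed the 12 largest in the authors' deposited table. Of these 12, CYP1A1, CYP1B1 and VIPR1 had the tightest errors, while C2orf72, UGT1A6 and TMEM45B had errors of at least 0.63 on the log2 scale. In contrast 1 of the authors' deposited table, PTGES3L was 0.267-fold, CRYAB 0.337-fold, CD7 0.399-fold, UGT1A6 0.404-fold, HIST1H4D 0.531-fold and TMEM45B 0.995-fold. CYP1B1, CYP1A1, HSPA6, TEX14, VIPR1 and C2orf72 were 1.41-fold to 2.28-fold there. As taken, contrast 1 shares its untreated SATB1 libraries with contrast 4, and the part of low values in them was not tested.

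The largest decreases were mostly of imprecise genes. SH2D6 was 0.154-fold in the authors' deposited table with an interval from 0.0543 to 0.436, and the chemokine receptor CCR1 was 0.269-fold (0.135 to 0.537). TLX2 (0.280-fold), FBXO39 (0.294-fold), G0S2 (0.294-fold), THEG (0.296-fold), PTGIS (0.355-fold), LDB3 (0.357-fold), OSR1 (0.386-fold), MAP3K15 (0.388-fold), PDGFRB (0.429-fold) and ANKRD1 (0.431-fold) followed in the authors' deposited table. G0S2, PTGIS and TLX2 had a fold of 1.00 in contrast 2 with a p above 0.99, a fold shared to 4 decimals by 215 genes, and the table gives no level that would show whether such genes were read at all there. The more precise decreases were those of the WNT antagonist DKK1 (0.476-fold, interval 0.435 to 0.521, adjusted p = 8.42e-14), MYC (0.682-fold, adjusted p = 3.76e-14) and, chosen after its value was seen, the insulin receptor substrate IRS1 (0.540-fold, adjusted p = 8.03e-13), all from the authors' deposited table.

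**Figure D2:**
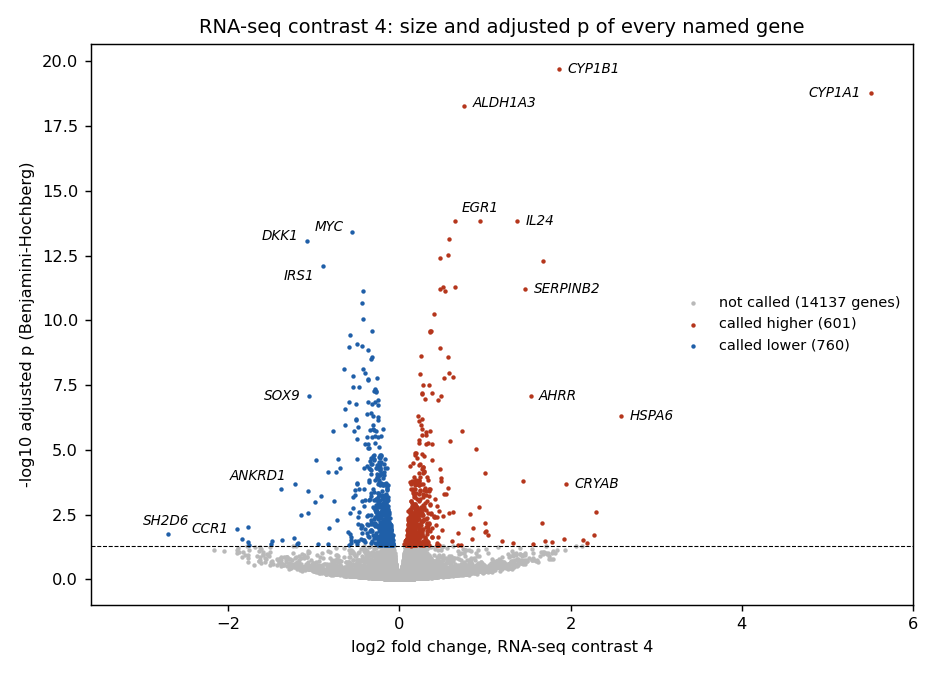
Log2 fold change (horizontal axis) against −log10 adjusted p (vertical axis) of each named gene with 1 entry in RNA-seq contrast 4, with the threshold of 0.05 as a dashed line and genes called higher in red and lower in blue. CYP1A1 and CYP1B1 stand at the top right, apart from the rest of the 601 genes called higher, while SH2D6 and CCR1 lie far left and close to the threshold.

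Growth factor signalling genes moved in both directions. Immediate early genes, transcribed within minutes of a stimulus, counted 8 higher and 4 lower of 26, with a median log2 fold change of 0.14. Over all genes, 3.87% were called higher and 4.9% lower. The zinc finger factor EGR1 rose 1.92-fold in the authors' deposited table (log2 0.94 ± 0.05, adjusted p = 1.46e-14). EGR4 (3.18-fold, adjusted p = 0.00683), the AP-1 subunits FOSB (2.00-fold), JUND (1.26-fold), JUNB (1.20-fold) and FOSL1 (1.11-fold), the survival gene IER3 (1.13-fold) and the mRNA decay factor ZFP36 (1.09-fold) also rose in the authors' deposited table. The 4 that fell in the authors' deposited table were MYC, the Krüppel-like factor KLF6 (0.817-fold), the phosphatase DUSP1 (0.876-fold) and FOSL2 (0.940-fold). In contrast 2, EGR1 was 1.74-fold in the authors' deposited table, and the difference was not called (0.14 ± 0.08, interval -0.01 to 0.30, adjusted p = 0.874).

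The promoter of EGR1 is shown because 2 of the CArG boxes through which serum response factor acts on this gene, CC followed by 6 letters A or T and then GG, lie within it, in capitals.
EGR1, plus strand, chr5:138465229-138465528: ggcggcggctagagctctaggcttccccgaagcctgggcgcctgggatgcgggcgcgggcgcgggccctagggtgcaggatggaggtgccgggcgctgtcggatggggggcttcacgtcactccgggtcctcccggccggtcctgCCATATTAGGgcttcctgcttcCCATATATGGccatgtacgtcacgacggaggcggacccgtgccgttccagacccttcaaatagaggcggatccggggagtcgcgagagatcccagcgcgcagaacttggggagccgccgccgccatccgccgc

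They began 105 and 83 bases before the start. A CArG box was in 1.18% of all promoter windows, in 0.606% of those of genes called higher and in 0.702% of those called lower. It was in 10% of the immediate early genes' windows (2 of 20) and in 2 of the 28 windows of genes called higher by at least 1.5-fold. EGR1 itself is among the 2 in each of these counts. Of genes called lower by at least 1.5-fold, 1 of 27 windows held a box. Of 23 serum response factor and actin target genes, 2 rose and 4 fell in contrast 4, with a median log2 fold change of -0.04. Over all genes, 3.87% were called higher and 4.9% lower.

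Of 15 feedback genes of the ERK kinase pathway, 7 fell, 2 rose and 6 were not called, with a median log2 fold change of -0.16. Shares over all genes were 3.87% higher and 4.9% lower. The phosphatases DUSP4 (0.740-fold, adjusted p = 2.05e-11), DUSP6 (0.746-fold), DUSP5 (0.771-fold) and DUSP7 (0.893-fold), which remove phosphate from MAP kinases, fell in the authors' deposited table. So did the receptor pathway inhibitors SPRY1 (0.712-fold), SPRY2 (0.868-fold) and ERRFI1 (0.796-fold), while SPRED1 (1.14-fold) and IER3 rose in the authors' deposited table. ERRFI1, which binds and blocks the EGF receptor, was 0.592-fold in contrast 2 of the authors' deposited table, and the fall was smaller in contrast 4 (difference 0.43 ± 0.07, adjusted p = 3.98e-04). Of 14 genes for the EGF receptor family and its ligands, 3 rose and none fell. EPGN, the ligand epigen, was 1.39-fold, EGFR 1.20-fold and HBEGF, heparin-binding EGF, 1.26-fold in the authors' deposited table. EPGN was 1.91-fold in contrast 2 in the authors' deposited table, more than in contrast 4 (difference -0.46 ± 0.04, adjusted p = 5.04e-08).

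**Figure D3:**
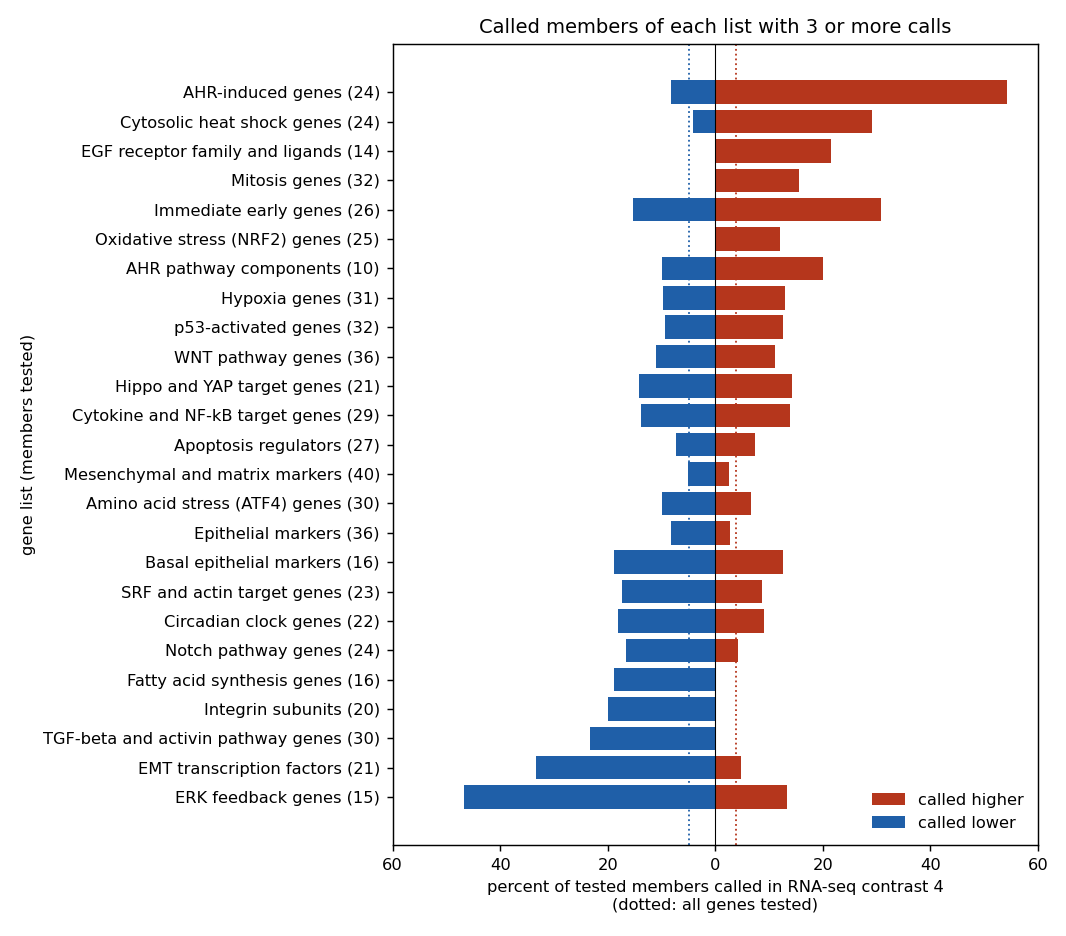
Percent of tested members called higher (red, to the right) and lower (blue, to the left) in RNA-seq contrast 4 (horizontal axis) for each list with at least 3 called members (vertical axis, number tested in parentheses), with dotted lines at 3.87% and 4.9% for all genes. AHR-induced genes reach farthest right with 13 of 24 higher, and ERK feedback genes farthest left with 7 of 15 lower.

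The study centred on the epithelial-to-mesenchymal transition (EMT), in which epithelial cells lose junctions and gain motility. Of 21 transcription factors known to drive it, 7 fell and 1 rose in contrast 4, with a median log2 fold change of -0.09. Shares over all genes were 4.9% lower and 3.87% higher. SOX9 fell to 0.483-fold (log2 -1.05 ± 0.12, adjusted p = 8.38e-08), FOXC2 to 0.705-fold and SNAI2, the repressor of E-cadherin also called SLUG, to 0.779-fold (adjusted p = 1.44e-07) in the authors' deposited table. TBX3 (0.823-fold), FOXC1 (0.864-fold), SOX4 (0.866-fold) and TWIST1 (0.869-fold) fell less in the authors' deposited table, and RUNX2, a bone and mammary factor, rose 1.49-fold. SNAI1 (1.02-fold, interval 0.711 to 1.47), ZEB1 (0.940-fold, 0.836 to 1.06) and ZEB2 (1.05-fold, 0.898 to 1.22) were not called in the authors' deposited table. RUNX2 was 1.98-fold in contrast 2 of the authors' deposited table, and the difference of -0.41 ± 0.09 was called (adjusted p = 0.0222). SOX9 was 0.484-fold in contrast 2 of the authors' deposited table, and its difference was 0.00 ± 0.16.

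The effector genes of EMT moved little. E-cadherin, CDH1, was 0.989-fold (interval 0.947 to 1.03, adjusted p = 0.806) and vimentin, VIM, 0.968-fold (0.937 to 1.00, adjusted p = 0.239) in the authors' deposited table. Of 40 mesenchymal and matrix markers, 1 rose (TGFBI, 1.09-fold) and 2 fell (the urokinase receptor PLAUR, 0.860-fold, and tenascin TNC, 0.904-fold) in the authors' deposited table. Of 36 epithelial markers, 1 rose (the tight junction scaffold TJP1, 1.08-fold) and 3 fell in the authors' deposited table, namely claudin CLDN1 (0.754-fold), the splicing factor ESRP2 (0.919-fold) and the desmosome gene PKP3 (0.924-fold). These shares are close to the background of 3.87% higher and 4.9% lower. That background holds imprecise genes too, and the lists were not matched for precision. Genes with an implied error at or below the median, adjusted alone, gave 545 higher and 745 lower calls, so their share is larger. Of 16 basal markers, 2 rose (EGFR and keratin KRT17, 1.09-fold) and 3 fell in the authors' deposited table, namely TP63 (0.776-fold), which maintains basal cells, integrin ITGB4 (0.906-fold) and keratin KRT6A (0.939-fold). Keratins have near-identical copies, so their values are uncertain. Of 10 luminal markers, KRT7 alone was called (0.907-fold in the authors' deposited table). Of 20 integrin subunits, 4 fell and none rose, the collagen receptor ITGA2 most clearly at 0.833-fold in the authors' deposited table.

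Markers of cell types that a breast epithelial line should not hold were examined as well. Of 11 fibroblast markers, 2 fell, FAP (0.842-fold) and PDGFRB (0.429-fold), in the authors' deposited table and none rose. Of the 13 leukocyte markers 7 were in the table and CD14 fell (0.831-fold), and of the 9 endothelial markers 7 were in the table and ENG fell (0.899-fold) in the authors' deposited table. None of the 6 adipocyte markers in the table was called. Shares over all genes were 3.87% higher and 4.9% lower. Levels are not given, so a presence of such cells cannot be read from these ratios, and their part in other results was not tested.

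TGF-β and activin genes were called in 1 direction, with 7 of 30 lower, none higher and a median log2 fold change of -0.09. Over all genes, 4.9% were called lower and 3.87% higher. FST, follistatin, which binds activin, fell to 0.598-fold, TGFB2, a ligand, to 0.711-fold and INHBA, the activin subunit, to 0.718-fold in the authors' deposited table. The type II receptor TGFBR2 fell to 0.776-fold (adjusted p = 2.02e-08), LTBP2 to 0.872-fold, the target ID1 to 0.898-fold and TGFB1 to 0.916-fold in the authors' deposited table. In contrast 2, 12 of the 30 were lower and 3 higher, and no difference between the contrasts was called for the list.

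Notch genes counted 1 higher and 4 lower of 24, where 3.87% of all genes were called higher and 4.9% lower. The 1 higher Notch gene is near that share. The ligands JAG1 (0.776-fold, adjusted p = 1.35e-09) and JAG2 (0.812-fold) and the effectors HES1 and HEY1 (0.675-fold) fell, and MFNG, a glycosyltransferase that modifies Notch, rose 2.00-fold in the authors' deposited table. WNT genes counted 4 higher and 4 lower of 36. DKK1 fell most, and the others lower in the authors' deposited table were the receptor FZD8 (0.825-fold), WNT10B (0.870-fold) and SFRP1 (0.949-fold). WNT5A (1.38-fold), its receptor family member FZD7 (1.35-fold), WNT9A (1.26-fold) and NKD1 (1.20-fold) rose in the authors' deposited table. Hippo and YAP genes counted 3 higher and 3 lower of 21, with the muscle and injury gene ANKRD1 lowest.

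Genes activated by p53, which responds to DNA damage, counted 4 higher and 3 lower of 32, with a median log2 fold change of 0.00. Over all genes, 3.87% were called higher and 4.9% lower. CDKN1A, the cell cycle inhibitor p21, rose 1.29-fold in the authors' deposited table (log2 0.37 ± 0.03, adjusted p = 2.52e-10), less than its 1.46-fold in contrast 2 (difference -0.18 ± 0.04, adjusted p = 0.0435). TP53INP1 (1.35-fold), SESN2 (1.15-fold) and BTG2 (1.13-fold) rose, and PLK2 (0.797-fold), AEN (0.830-fold) and GADD45A (0.867-fold) fell in the authors' deposited table. MDM2, the ligase that degrades p53, was not called (1.07-fold in the authors' deposited table, adjusted p = 0.0901). Of 27 nucleotide excision repair genes, which remove bulky adducts, 2 rose in the authors' deposited table, ERCC4 (1.17-fold) and ERCC6 (1.10-fold). XPC, which recognises damage, was 0.999-fold (interval 0.950 to 1.05). ERCC6 was 1.49-fold in contrast 2 of the authors' deposited table (difference -0.44 ± 0.06, adjusted p = 9.63e-06).

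Cytosolic heat shock genes, chaperones switched on by heat shock factor, counted 7 higher and 1 lower of 24. Shares over all genes were 3.87% higher and 4.9% lower. HSPA6, a strictly inducible HSP70, rose 6.03-fold (log2 2.59 ± 0.31, adjusted p = 4.98e-07) and the small heat shock gene CRYAB 3.85-fold (1.94 ± 0.34) in the authors' deposited table. DNAJB4 (1.24-fold), HSPA1A (1.22-fold), HSPA1B (1.21-fold), DNAJB1 (1.18-fold) and HSPH1 (1.07-fold) also rose, and the factor HSF1 fell to 0.931-fold in the authors' deposited table. HSPA1A and HSPA1B are near-identical copies and their values are uncertain. HSPA6 was 17.4-fold in contrast 2 of the authors' deposited table, and the difference of -1.53 ± 0.48 was not called (adjusted p = 0.311). The HSPA6 promoter is shown with the letters TTCNNGAA or GAANNTTC of paired heat shock units in capitals.
HSPA6, plus strand, chr1:161524290-161524589: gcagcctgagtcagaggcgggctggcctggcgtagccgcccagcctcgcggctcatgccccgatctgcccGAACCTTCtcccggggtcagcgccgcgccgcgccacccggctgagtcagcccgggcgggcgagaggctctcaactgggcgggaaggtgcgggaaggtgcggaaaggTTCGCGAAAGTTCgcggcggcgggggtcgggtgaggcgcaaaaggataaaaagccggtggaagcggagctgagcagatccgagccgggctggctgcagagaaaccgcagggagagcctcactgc

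They began 180, 74 and 69 bases before the start, the last pair overlapping. The letters were in 10.6% of all windows, 13.3% of those of genes called higher and 8.60% of those of genes called lower, and in 8 of 21 windows of the heat shock list (38.1%). Among genes changed by at least 1.5-fold, they were in 4 of 28 windows of those called higher and 5 of 27 of those called lower.

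Cytokine and NF-κB genes counted 4 higher and 4 lower of 29, where 3.87% of all genes were called higher and 4.9% lower. IL24, a cytokine of the IL-10 family, rose 2.60-fold in the authors' deposited table (log2 1.38 ± 0.08, adjusted p = 1.46e-14), less than its 5.22-fold in contrast 2 (difference -1.01 ± 0.18, adjusted p = 0.00167). It was already 6.41-fold in contrast 1 of the authors' deposited table, so the smaller rise does not give a lower final level. LIF, an IL-6 family cytokine, rose 1.57-fold and TNFAIP2 1.11-fold, beside IL1B, in the authors' deposited table. The neutrophil chemokines CXCL8 (0.750-fold), CXCL2 (0.794-fold) and CXCL1 (0.839-fold) and the NF-κB inhibitor TNFAIP3 (0.893-fold) fell in the authors' deposited table, CXCL1 and CXCL2 being close copies whose reads may be shared. Of 31 interferon-stimulated genes, IRF1 alone was called, at 1.16-fold in the authors' deposited table.

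Clock genes counted 2 higher and 4 lower of 22, where 3.87% of all genes were called higher and 4.9% lower. The repressors NR1D1 (0.642-fold, adjusted p = 7.61e-09), BHLHE41 (0.719-fold), PER2 (0.838-fold) and BHLHE40 (0.888-fold) fell in the authors' deposited table. Both ARNTL, the clock activator BMAL1 (1.14-fold), and CRY2, another clock repressor (1.17-fold), rose in the authors' deposited table. Hypoxia genes, which share ARNT with AHR, counted 4 higher and 3 lower of 31. NDRG1 rose 1.42-fold, CA12 1.10-fold, HK2 1.08-fold and SLC2A1 1.07-fold, and ANGPTL4 (0.811-fold), BHLHE40 and EPAS1 (0.944-fold) fell in the authors' deposited table. Of 25 oxidative stress genes, TXNRD1 (1.21-fold), OSGIN1 (1.36-fold) and NQO1 rose in the authors' deposited table. Of 32 mitosis genes, 5 rose, all by little, from ANLN (1.05-fold) to CENPE (1.11-fold) in the authors' deposited table. The DNA replication list had 1 of 38 higher, RFC1. None of 67 cytosolic ribosomal protein genes and none of 19 endoplasmic reticulum chaperone genes was called in either direction.

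Contrasts 4 and 2 were then compared gene by gene over the 15517 genes with 1 entry. Contrast 2 called 19.3% of all genes. Of the 1361 genes called in contrast 4, 1056 were called in the same direction in contrast 2, which is 77.6% of the calls of contrast 4 and 35.3% of those of contrast 2. The 1 gene called in opposite directions was FOSL2, at 0.940-fold in contrast 4 and 1.06-fold in contrast 2 in the authors' deposited table. Among the 458 genes called higher in both, 316 had the smaller change in contrast 4, and the median ratio of log2 fold changes was 0.844. Among the 598 called lower in both, 431 were smaller in contrast 4, with a median ratio of 0.868. The remaining 304 were called in contrast 4 and not in contrast 2, which does not show a difference.

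The difference itself was called for 64 of 15517 genes (0.412%), 58 with contrast 4 below contrast 2 and 6 above, and 948 had an unadjusted p under 0.05. In 63 of the 64 the change was smaller in contrast 4, the exception being FOSL2. Outside the AHR list, the cell surface hyaluronidase TMEM2 had the smallest p of the difference, with 1.45-fold in contrast 4 and 2.96-fold in contrast 2 of the authors' deposited table (difference -1.03 ± 0.06, adjusted p = 2.15e-13). E2F7, a repressor of the cell cycle, was 1.58-fold and 2.26-fold (-0.52 ± 0.05), and VIPR1 3.20-fold and 5.82-fold (-0.86 ± 0.18) in the authors' deposited table. The collagen gene COL1A1 was 0.916-fold in contrast 4, not called, and 1.72-fold in contrast 2 in the authors' deposited table (-0.91 ± 0.11, adjusted p = 4.58e-06).

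The 6 genes with contrast 4 above contrast 2 were all called lower in contrast 2. SGK1, a kinase of salt and survival signalling, was 0.705-fold in contrast 4 and 0.483-fold in contrast 2 in the authors' deposited table (difference 0.55 ± 0.09). S1PR3, a receptor for sphingosine 1-phosphate, was 1.02-fold and 0.659-fold in the authors' deposited table (0.62 ± 0.09). The others were ERRFI1, ANGPTL4, KLF6 and the chromatin reader ZMYND8. The test takes the errors of the contrasts as independent, and it was not set against differences in starting level between the cell kinds. In contrast 1 of the authors' deposited table that gap reached 809-fold for the gap junction gene GJA1 and 50.4-fold for CDKN2B, both chosen after their values were seen. For the 6 genes above contrast 2, it was 3.12-fold (ANGPTL4), 0.970-fold (KLF6), 0.875-fold (SGK1), 0.803-fold (ZMYND8), 0.747-fold (S1PR3) and 0.686-fold (ERRFI1). For the 6 of smallest p below contrast 2, it was 2.76-fold (ALDH1A3), 1.82-fold (TMEM2), 1.47-fold (EPGN), 1.41-fold (CYP1B1), 1.35-fold (TIPARP) and 1.19-fold (E2F7). As taken, contrast 1 uses the same untreated libraries as contrasts 2 and 4. The part of such gaps in the differences was not tested.

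**Figure D4:**
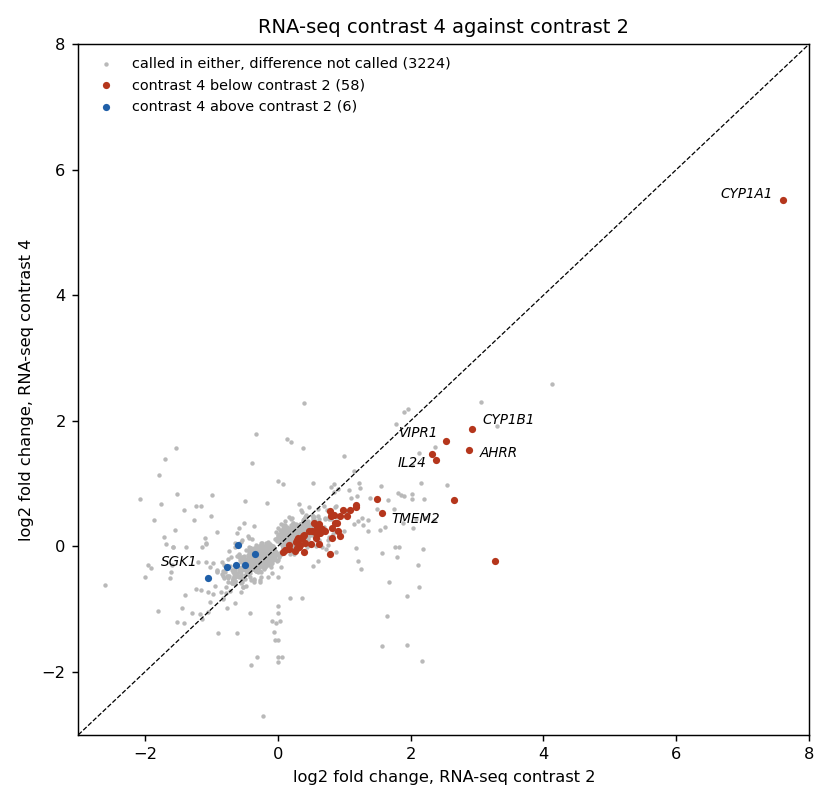
Log2 fold change in RNA-seq contrast 4 (vertical axis) against contrast 2 (horizontal axis) for genes called in either contrast or in their difference, with the line of equality dashed, the 58 genes whose difference was called below it in red and the 6 above it in blue. CYP1A1, CYP1B1, AHRR and TMEM2 lie to the right of the line, with larger increases in contrast 2.

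GRO-seq contrast 4, taken as the same groups in nascent RNA, called 458 of 14745 genes (3.11%), with 1.58% higher and 1.53% lower and a median implied error of 0.317 on the log2 scale, larger than that of RNA-seq. Of the 1323 genes called in RNA-seq contrast 4 and present there, 110 were called in GRO-seq (8.31%), 96 in the same and 14 in the opposite direction. The sign was shared, called or not, by 68.2% of the 1323, against 55.6% of the 13771 genes common to both tables. Of 21 AHR-induced genes in GRO-seq, 6 were higher and 3 lower, and the median log2 fold change was -0.15, against 0.23 over the 24 in mRNA. CYP1A1 was 48.0-fold, CYP1B1 7.93-fold, AHRR 18.9-fold, TIPARP 2.74-fold, ALDH3A1 3.26-fold and SERPINB2 4.60-fold in GRO-seq in the authors' deposited table. The 3 lower were XDH (0.253-fold), IL1B (0.469-fold) and TGFA (0.544-fold) in the authors' deposited table. AHRR thus stood at 2.89-fold in mRNA beside 18.9-fold in nascent RNA in the authors' deposited table, and its errors were 0.17 and 0.44 on the log2 scale. ALDH1A3 was called in mRNA and not in nascent RNA (0.530-fold in the authors' deposited table, log2 -0.92 ± 0.56, adjusted p = 0.469).

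The list counts in GRO-seq stand beside 1.58% of all genes called higher and 1.53% lower there. None of 23 cytosolic heat shock, 23 Notch and 24 oxidative stress genes was called in GRO-seq. Immediate early genes had 1 of 26 higher and none lower. Cytokine and NF-κB genes had 4 of 27 lower, ERK feedback genes 2 of 15 and serum response factor and actin targets 6 of 24, with none higher. Of 28 TGF-β and activin genes in GRO-seq, 6 were lower and none higher, among them INHBA (0.110-fold), TGFB2 (0.350-fold) and LTBP2 (0.429-fold) in the authors' deposited table, all called lower in mRNA too. Of 20 EMT factors, 3 were lower in GRO-seq, HMGA2 (0.461-fold), SOX4 (0.424-fold) and FOXC1 (0.479-fold), and KLF8 was higher (1.69-fold) in the authors' deposited table. HMGA2 and KLF8 were not called in mRNA. Of 36 epithelial markers, 4 were higher and none lower in GRO-seq, where 1 was higher and 3 lower in mRNA. They were MUC1 (8.84-fold), GRHL3 (3.53-fold), the desmosome gene DSP (2.61-fold) and OVOL2 (2.46-fold) in the authors' deposited table. Of 16 basal markers, 6 were higher in GRO-seq, EGFR and the keratins KRT5, KRT6A, KRT6B, KRT14 and KRT17, and LAMB3 was lower (0.295-fold in the authors' deposited table). Of 38 mesenchymal and matrix markers, 5 were lower and none higher in GRO-seq, namely TNC (0.175-fold), TAGLN (0.214-fold), PLAU (0.303-fold), COL4A1 (0.353-fold) and COL4A2 (0.359-fold) in the authors' deposited table. Of 32 p53-activated genes, 5 were higher and none lower in GRO-seq. XPC (1.71-fold, adjusted p = 0.00806) and MDM2 (1.74-fold, adjusted p = 0.0154) were higher in GRO-seq in the authors' deposited table and not called in mRNA. EGR1 was 1.03-fold in GRO-seq (adjusted p = 0.969) and MYC 1.31-fold (adjusted p = 0.593) in the authors' deposited table, with errors of 0.26 and 0.30 on the log2 scale. The 14 genes called in opposite directions included IL24, at 2.60-fold in mRNA and 0.0688-fold in GRO-seq in the authors' deposited table (adjusted p of the latter 0.00849, log2 -3.86 ± 0.82). They also included SGK1 (0.705-fold and 1.96-fold), IL1B (1.15-fold and 0.469-fold) and the sodium channel subunit SCNN1G (0.701-fold and 12.7-fold), for mRNA and GRO-seq in turn in the authors' deposited table. The other 10 were BCL6, TRIM35, ITCH, RGS2, CHST2, TNFAIP2, KRT6A, SAMD4A, SPIRE1 and FOSL2. The difference between the assays was not tested.

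**Figure D5:**
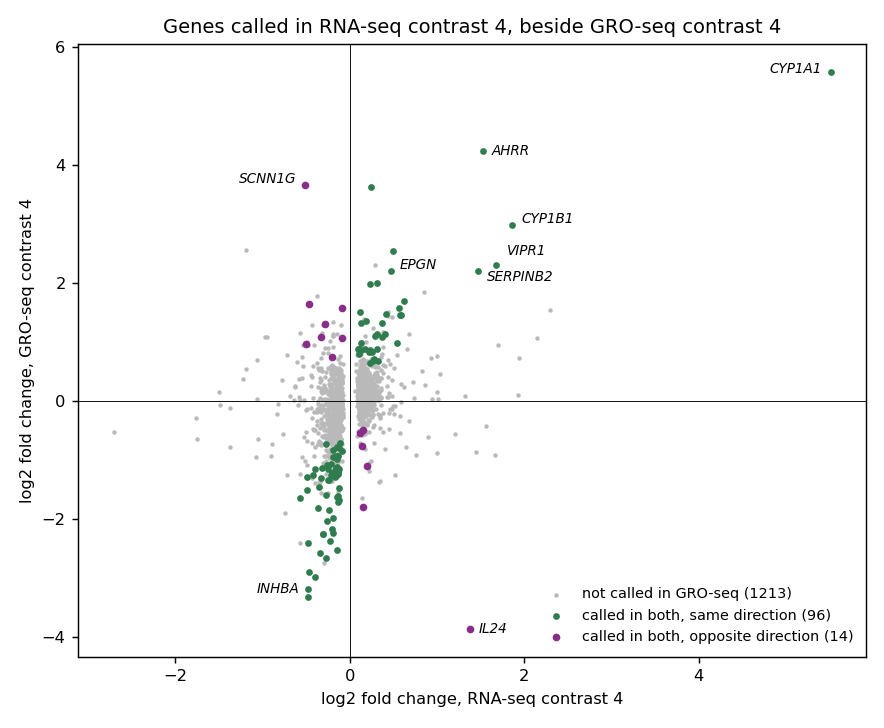
Log2 fold change in GRO-seq contrast 4 (vertical axis) against RNA-seq contrast 4 (horizontal axis) for the 1323 genes called in RNA-seq contrast 4 and present in both tables, with genes called in both in green (96, same direction) or purple (14, opposite direction). CYP1A1 lies at the top right, and IL24 at the lower right with an increase in mRNA and a decrease in nascent RNA.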

How the data were processed

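RNA-seq and GRO-seq libraries of MCF10A-1 cells were processed by the submitters. Per the submitters' processing notes, RNA-seq used STAR and DESeq, and GRO-seq used BWA 0.7.16a, featureCounts and limma, on GRCh38. The sources used here do not state the annotation, the use of strand or any filter, so overlapping and antisense genes are uncertain. The authors deposited, per the file headers, 2 values per symbol for each of 5 numbered contrasts, a fold change (linear ratio) and a p-value that is not adjusted. The column name of the p-value is the one limma gives. Depth is unknown, and since the tables hold comparisons, the fallback planned for that case was used in place of fits on libraries.

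Of 15691 entries, 156 without a symbol (0.994%) were left out, and 23 with a date in place of the symbol were tested and not named. Of the symbols, 99.7% matched RefSeq (GRCh38.p14), which gave coordinates and promoters. The Benjamini-Hochberg adjustment ran over all 15535 entries. The implied standard error is the log2 fold change over the Student quantile of its p-value, with the degrees of freedom at which a gene's 5 errors varied least (31 in RNA-seq, 25 in GRO-seq). Intervals are 95%. The difference of contrasts 4 and 2 was tested with both errors, covariance taken as 0, and adjusted over 15517 genes with 1 entry. The calls of contrast 4, the degrees of freedom and the difference test were tested on simulated data. For calls, 72 of 100 planted 1.5-fold increases and 76 of 100 planted 2-fold decreases were recovered, with 9 of 157 calls unplanted. For the difference, 145 of 200 planted 2-fold differences were recovered. The simulated errors were independent and of the assumed size, and equal over contrasts for the degrees of freedom. The simulation thus checks the computation and not those assumptions.

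Named are SATB1, CYP1A1, CYP1B1, TIPARP, AHRR, CDH1, VIM and SNAI2, the 12 largest and 12 smallest called fold changes, the 4 called genes of smallest adjusted p in each of the 39 lists that had at least 3 called, and the 6 genes with the smallest p of the difference each way. Other named genes are members of those lists, called in both assays in opposite directions, or said to be chosen after their values were seen. The contrast and the lists were chosen with earlier results of these data known. Alternatives were stricter and looser thresholds, minimum folds, adjustment over all entries or by Benjamini-Yekutieli, the more precise genes (implied error at or below the median), 18 degrees of freedom, and contrast 5 in place of contrast 2. Computations ran in Python 3.11.15 with scipy 1.17.1, numpy 2.4.6, pandas 2.3.3 and matplotlib 3.10.9.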

Additional observations from a re-analysis of the deposited data

Results flagged for a closer look

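The genes below are those named or listed for which the change in RNA-seq contrast 4 differed from that in contrast 2 by the test of the difference at a Benjamini-Hochberg adjusted p under 0.05. Each value is the log2 fold change of contrast 4 minus that of contrast 2. Among AHR-induced genes it was -2.10 for CYP1A1, -1.35 for AHRR, -1.06 for CYP1B1, -0.86 for SERPINB2, -0.73 for ALDH1A3, -0.55 for ALDH3A1, -0.50 for TIPARP and -0.40 for IL1B.

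Among growth factor and immediate early genes it was -0.46 for EPGN, -0.21 for IER3, -0.18 for FOSL2, 0.43 for ERRFI1 and 0.20 for KLF6. Among cytokine, heat shock and hypoxia genes it was -1.01 for IL24, -0.35 for HSPA1A, -0.35 for HSPA1B, -0.34 for NDRG1 and 0.33 for ANGPTL4. Among developmental and matrix genes it was -0.91 for COL1A1, -0.68 for WNT7B, -0.41 for RUNX2, -0.32 for HES2 and -0.24 for AJUBA, and among damage response genes -0.44 for ERCC6 and -0.18 for CDKN1A. It was -1.03 for TMEM2, -0.86 for VIPR1, -0.52 for E2F7, 0.62 for S1PR3, 0.55 for SGK1 and 0.22 for ZMYND8.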

How the results depend on the processing

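Under an adjusted p under 0.01, contrast 4 called 294 genes higher and 366 lower and the difference from contrast 2 was called for 42. Under an adjusted p under 0.1, 920 were higher. A minimum of 1.5-fold left 42 higher and 38 lower, and of 2-fold 24 and 19. Benjamini-Yekutieli adjustment gave 225 and 277. Counts of higher and lower stayed within 1.5 times under adjustment over all entries (599 and 759) and among the more precise genes (545 and 745), as did the count lower under an adjusted p under 0.1 (1113). The difference was called for 85 genes under an adjusted p under 0.1, for 92 with 18 degrees of freedom, and for 1508 with contrast 5 in place of contrast 2, which as taken shares its controls with contrast 4. Of the 118 named genes, 32 lost their call under an adjusted p under 0.01, 79 at 1.5-fold, 85 at 2-fold and 39 under Benjamini-Yekutieli. No direction changed, since these settings alter no fold change. No paired analysis was possible because the tables hold comparisons and no value per library, and for the same reason no replicate was left out, no other normalization or filter on low counts was run, and depth sets no stated limit.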
